A study of Homo sapiens with 3 samples.

Results

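The features described here are 1752 stretches of the genome that were transcribed in MDA-MB-157 cells but carry no gene symbol in the deposited table, where a position stands in place of the name. They were found by a name that starts with "chr" in the gene-level blocks of the table, with the sex chromosomes and the isoform blocks left out. They make up 1752 of 5306 autosomal gene-level rows, 33.0% with a 95% Wilson interval from 31.8 to 34.3%, and the other 3554 rows carry gene symbols. Intervals of shares given below are of this kind, those of medians come from order statistics, and both cover counting error only. They are too narrow where neighbouring loci belong together. MDA-MB-157 is a triple-negative breast cancer line, and 3 libraries were made from it, each with 1 sample. Untreated cells, cells with a lacZ control vector and cells with a lentiviral *WT1* shRNA were sequenced, and the labels give this last group as Wt1 KO although the construct is a knockdown vector. The table holds a comparison, but its columns do not name the libraries compared. Its title, which the labels cite for all 3 samples, carries the word untreated. The reference is not named either, so that upregulated and downregulated are used below only as the headings of its blocks, without a statement of which condition was higher. No value for any library was used, so depth and spread between replicates are unknown, and the conditions were not tested against each other. For the same reason the cell type was not checked by marker levels, and *WT1* itself was not analysed here.

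In RNA-seq, reads that fall outside annotated exons are assembled into loci of their own, which receive a position for a name. Such loci are known to come from several sources: divergent transcription at promoters, where the polymerase also fires away from the gene, transcription that runs on past the end of a gene, enhancer RNAs, and long noncoding RNAs that the annotation used did not hold. For the transcripts tied to a known gene, the position and the strand of the neighbour are informative. Positions are printed as the table gives them, in the build that the submitters' processing notes name as hg19, also called GRCh37. The distances are between the nearest edges, and widths are the end minus the start.

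A genome of that build was not used here, so the bases of the loci are not shown. Of the 1752 loci, 104 lay up to 1 kb in front of a gene, as described below, and the promoter windows of 4 such genes are shown instead. They belong to the 2 nearest loci of each block that lay on the 5' side of a gene in the same block and with an entry in the RefSeq promoter table. *DNAJA2*, a co-chaperone of Hsp70, and *TNS3*, a tensin of focal adhesions, had upregulated loci 58 and 73 bases from their 5' edge. *TMEM200A* and *IVNS1ABP*, a Kelch-type actin-binding protein, had downregulated loci 34 and 58 bases away. Each window has 300 bases in GRCh38.p14 coordinates from RefSeq, ending shortly after the start of the gene, read along the gene's strand, with each CG dinucleotide in capitals. The windows lie at chr16:46973625-46973924 on the minus strand, chr7:47582537-47582836 on the minus strand, chr6:130365767-130366066 on the plus strand and chr1:185317194-185317493 on the minus strand.
DNAJA2: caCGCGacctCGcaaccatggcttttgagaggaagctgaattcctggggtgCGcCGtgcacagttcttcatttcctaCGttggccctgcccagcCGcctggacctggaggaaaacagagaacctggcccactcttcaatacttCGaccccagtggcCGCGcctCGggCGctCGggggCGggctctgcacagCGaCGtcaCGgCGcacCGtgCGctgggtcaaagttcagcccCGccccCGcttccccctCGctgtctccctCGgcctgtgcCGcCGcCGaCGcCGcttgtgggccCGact
TNS3: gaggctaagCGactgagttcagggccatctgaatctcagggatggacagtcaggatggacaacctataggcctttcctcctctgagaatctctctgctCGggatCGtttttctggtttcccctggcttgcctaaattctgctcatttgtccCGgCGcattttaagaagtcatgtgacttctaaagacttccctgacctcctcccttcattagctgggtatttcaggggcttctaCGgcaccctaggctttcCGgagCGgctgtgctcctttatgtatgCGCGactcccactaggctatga
TMEM200A: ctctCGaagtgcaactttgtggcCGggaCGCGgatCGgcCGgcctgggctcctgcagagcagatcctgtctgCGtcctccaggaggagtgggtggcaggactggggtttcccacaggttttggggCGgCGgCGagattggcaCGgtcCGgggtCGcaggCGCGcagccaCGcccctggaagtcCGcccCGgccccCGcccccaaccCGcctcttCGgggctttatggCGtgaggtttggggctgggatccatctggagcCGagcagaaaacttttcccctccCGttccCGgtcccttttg
IVNS1ABP: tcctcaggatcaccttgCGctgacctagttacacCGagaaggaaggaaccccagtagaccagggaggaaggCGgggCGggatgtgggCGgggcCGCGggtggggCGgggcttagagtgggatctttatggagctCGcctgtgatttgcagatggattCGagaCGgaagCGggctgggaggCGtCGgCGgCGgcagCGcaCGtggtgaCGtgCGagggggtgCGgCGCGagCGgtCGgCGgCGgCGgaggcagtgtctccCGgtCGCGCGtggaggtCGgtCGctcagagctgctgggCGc
The windows hold 30, 10, 25 and 35 CG dinucleotides in this order. The median is 14 over all 27305 promoters of the RefSeq table and 25 over the 2561 that belong to rows with symbols, so these windows lie on both sides of the typical count. All genes with a locus up to 1 kb upstream were not compared with the rest, because fewer than 80% of either set have an entry, 71 of 97 and 2561 of 3554. The loci were not placed on these windows, as the builds differ.

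Of the 1752 loci, 787 stood in the upregulated and 965 in the downregulated block. The share that was downregulated was 55.1%, with an interval from 52.7 to 57.4%. Among all autosomal gene-level rows it was 49.5%, and among the rows with symbols 46.7%, with an interval from 45.1 to 48.4% that does not meet that of the loci. Seen from the blocks, 36.7% of the downregulated rows and 29.4% of the upregulated rows had no symbol. The table lists features chosen by the authors' comparison, so these shares describe its contents and not all transcribed loci of the cells.

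The loci were short. Their median width was 527 bases with quartiles of 363 and 898, and 1351 of them, 77.1%, were under 1000 bases. Rows with symbols, which span whole genes with introns, had a median of 30.1 kb. The median was 535 bases in the upregulated block, with an interval from 509 to 563, and 524 in the downregulated block, with an interval from 503 to 552, so that the intervals of the medians overlapped. The upper quartile and the 90th percentile were higher in the upregulated block, 993 and 3327 bases against 842 and 1951 bases in the downregulated block. The far end of the tail was not longer there, with 6 loci over 50000 bases in each block. The widest locus had 120837 bases in the upregulated and 274973 in the downregulated block. Only 57 loci, 3.25%, were longer than 10000 bases. Of these, 29 were upregulated and 28 downregulated.

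**Figure D1:**
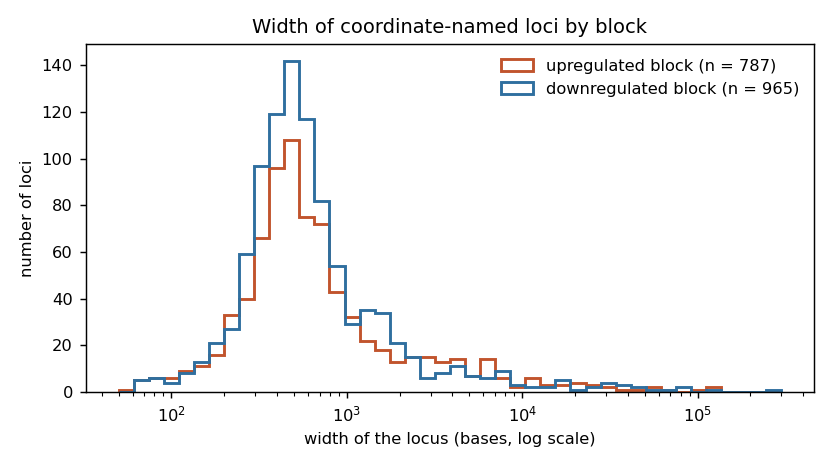
Number of coordinate-named loci by width in bases, on a logarithmic axis, for the upregulated block (787 loci) and the downregulated block (965 loci). Both curves peak close to the common median of 527 bases and have a thin tail up to 274973 bases.

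The widest locus lay on chromosome 14 from 106856142 to 107131115, a span of 274973 bases in the downregulated block. It lies towards the end of the long arm, where the immunoglobulin heavy chain genes are found. It was also the only locus that overlapped a row with a symbol, and the position of that row, *LINC00221*, a long noncoding RNA gene, was the same to the base and in the same block. The next widest downregulated loci measured 129.0 kb on chromosome 9, from 31848676 to 31977645, and 90.2 kb on chromosome 1, from 201508415 to 201598622. The latter ended 18.8 kb from *NAV1*, a neuron navigator gene that was also downregulated. The widest upregulated loci were on chromosome 16 from 48657360 to 48778197, with 120.8 kb, on chromosome 15 from 77969447 to 78088401, with 119.0 kb, and on chromosome 10 from 33271448 to 33371119, with 99.7 kb. The last lay 24.2 kb from *ITGB1*, the integrin beta 1 subunit, which was upregulated as well. At the other end of the scale, the narrowest loci had 55 bases in the upregulated block, on chromosome 1 from 191114962, and 61 in the downregulated block, on chromosome 4 from 69242316. The other narrowest loci had 61 and 63 bases among the upregulated and 67 and 67 among the downregulated. These 3 narrowest loci of each block lay between 70.8 kb and 4157 kb from a row with a symbol, and so none of them stood directly beside a gene of the table.

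The loci were clustered. Of 1752 loci, 827 or 47.2% lay within 10 kb of another such locus, with an interval from 44.9 to 49.5%. The same share among rows with symbols was 20.3%, with an interval from 19.1 to 21.7%. Joined at gaps of up to 10 kb, the loci fell into 313 runs of 2 or more and 925 single loci. Of the runs, 201 had 2 members, 64 had 3, and 26 had 5 or more. Within the runs the median gap was 408 bases, the shortest was 50, and 24.3% of 514 gaps were at most 100 bases. Loci of a run may be parts of the same transcript, which was not tested. Rows with symbols span whole genes, so the shares of loci and of these rows describe unlike units. The median run spanned 3211 bases. Members of a run were almost always in the same block: 125 runs were upregulated throughout, 178 downregulated throughout and 10 mixed. The share of runs in a single block was therefore 96.8%, with an interval from 94.2 to 98.3%, where runs of rows with symbols reached 83.3%, with an interval from 78.8 to 87.0%. None of the 26 runs of 5 or more was mixed, with 17 downregulated and 9 upregulated.

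The largest run had 8 loci of 348 to 719 bases on chromosome 4, from 100558034 to 100574726, all downregulated. The nearest gene of the table was 978.2 kb away, namely *TSPAN5*, a tetraspanin. Genes that the table does not list were not considered, so a nearer gene may exist. Runs of 7 loci were found in 4 places, and all 28 of their loci were downregulated. On chromosome 13 a run from 114053965 to 114059406 filled 90.1% of its span with listed loci and lay 76.2 kb from *LAMP1*, a lysosomal membrane glycoprotein that was also downregulated. On chromosome 6 a run from 3901345 to 3912202 lay 49.8 kb from *FAM50B*, an imprinted gene in the downregulated block. On chromosome 7 a run from 60297 to 71552 lay 121.4 kb from *FAM20C*, the Golgi kinase of secreted proteins, again downregulated. The run on chromosome 17 from 26591573 to 26598799 went the other way from its neighbour, because *TMEM97*, known as the sigma-2 receptor, stood in the upregulated block 47.3 kb away.

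Among the longer upregulated runs, 3 were chosen after their positions were seen. On chromosome 17 from 46705244 to 46749545, 5 loci covered 33607 bases. The nearest of them lay 104 bases from *MIR196A1*, a microRNA gene of the *HOXB* cluster. On chromosome 11 from 65184079 to 65211611, 5 loci lay around the row of *NEAT1*, the architectural RNA of paraspeckles, which was upregulated. Whether these loci belong to *NEAT1* transcripts longer than this row was not tested. On chromosome 19 from 45240834 to 45251680, the nearest of 5 loci lay 297 bases from *BCL3*, a nuclear regulator of NF-kappaB.

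Each locus was then paired with the nearest row that carries a symbol. Genes that the table does not list were not considered. The nearest gene and the distance to a gene therefore refer to listed genes only, and an unlisted gene may lie nearer. The median distance was 80.3 kb, with quartiles of 9.62 and 324.1 kb, against 83.1 kb between a row with a symbol and its nearest other such row. Within 10 kb of a gene lay 442 loci, 25.2%, and within 100 kb 923 loci, 52.7%. A further 176 were more than 1 Mb away. Upregulated loci were nearer to genes of the table, with a median of 64.4 kb and an interval from 51.3 to 78.1 kb, than downregulated loci, with 101.5 kb and an interval from 81.4 to 111.5 kb. Each locus of a run was counted, so these intervals are too narrow. The difference was not checked with each run counted once.

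Loci shared the block of the nearest gene in 1303 of 1752 cases, 74.4% with an interval from 72.3 to 76.4%. From the sizes of the blocks alone, 49.7% of such pairs would match. Averaged over the loci, 52.8% of the genes on the same chromosome and 60.9% of those in the same 10 Mb window stood in the block of the locus. The shared direction fell steadily with distance. It was 96.5% for 142 loci up to 1 kb from the gene, 90.3% for 299 loci at 1 to 10 kb, 75.9% for 481 loci at 10 to 100 kb, 65.7% for 653 loci at 100 kb to 1 Mb, and 57.4% for 176 loci farther away, with an interval from 50% to 64.5% in this last class. Within 10 kb, 90.8% of 217 upregulated and 93.8% of 225 downregulated loci matched, and the intervals of both blocks overlapped. Up to 10 kb, genes beside genes matched less often, in 85.8% of 723 cases with an interval from 83.0 to 88.1%, against 92.3% with an interval from 89.4 to 94.4% for the loci. Those 723 cases include 41 overlapping rows, and genes that are each other's nearest enter from both sides. In the class up to 1 kb the intervals overlapped, from 92.0 to 98.5% for the loci and from 85.2 to 93.2% for genes. At 1 to 10 kb they did not, from 86.4 to 93.2% for the loci and from 78.8 to 85.7% for genes. Beyond 10 kb the intervals of both kinds of pair overlapped in each class. Pairs of loci matched most often at short range, in 99.3% of 594 cases up to 1 kb.

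**Figure D2:**
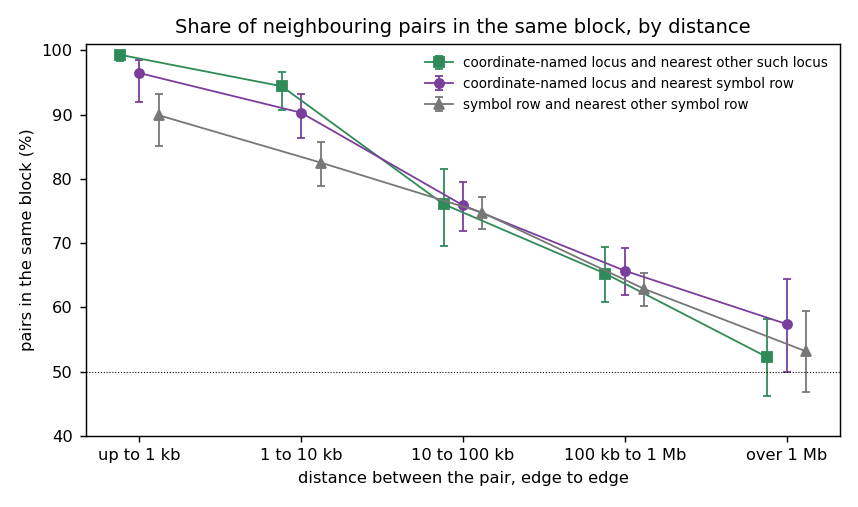
Percentage of neighbouring pairs in the same block against the distance between them, with 95% Wilson intervals as bars, for loci and their nearest gene, loci and their nearest other locus, and genes and their nearest other gene. The dotted line is at 50%. All 3 curves decline with distance, and up to 10 kb both curves of the loci lie above that of the genes, where loci and genes shared a block in 96.5% of cases up to 1 kb and 90.3% at 1 to 10 kb.

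The 5 loci up to 1 kb from a gene that stood in the other block were looked up after this count was seen. Upregulated loci lay 83 bases from *DANCR*, a long noncoding RNA, 218 bases from *RNU11*, the U11 small nuclear RNA, and 427 bases from *TIAM1*, a Rac exchange factor, which were all downregulated. Downregulated loci lay 138 bases from *TPM2*, a tropomyosin, and 334 bases from *FTH1*, the ferritin heavy chain, which were both upregulated. With genes on both sides considered, 1085 loci lay between 2 genes of the same block, and 873 of them, 80.5%, were in that block too. This was 78.3% between upregulated and 82.2% between downregulated genes. Where the flanking genes differed, the locus went with the nearer in 65.4% of 609 cases. This share was 86.0% of 121 cases when the nearer gene was within 10 kb and 54.4% of 320 cases, with an interval from 48.9 to 59.7%, when it was more than 100 kb away.

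The strand of the neighbouring gene, taken from GENCODE release 29 by symbol and chromosome, gave the side on which a locus lay. Up to 1 kb from the gene, 104 of 134 loci with a known side were in front of the 5' edge. This was 77.6%, with an interval from 69.8 to 83.8%. At 1 to 10 kb, 171 of 288 loci, 59.4%, lay behind the 3' edge, with an interval from 53.6 to 64.9%. With each gene counted once this was 56.7%, with an interval from 49.5 to 63.6% that reaches 50%, so an excess on the 3' side was not resolved in that count. At 10 to 100 kb, 54.9% of 457 loci were in front, with an interval from 50.3 to 59.4%. Neither side was in clear excess at 100 kb to 1 Mb, where 48.2% of 631 loci were in front. The excess at the 5' edge was present in both blocks, with 47 of 60 upregulated and 57 of 74 downregulated loci. At 1 to 10 kb, 45.9% of 146 upregulated loci were in front, with an interval from 38.0 to 54.0% that spans 50%, and 35.2% of 142 downregulated loci, from 27.8 to 43.4%. Genes up to 1 kb from another gene lay in front of it in 59.5% of 205 cases, with an interval from 52.7 to 66.0%. Genes that are each other's nearest enter this count from both sides. Such a pair on the same strand adds a case in front and a case behind, which draws the share towards 50%. The loci are counted once, so the gap between both shares cannot be read as a difference between loci and genes. At 1 to 10 kb, with the same limit, genes lay in front of the other gene in 45.2% of 440 cases. The interval, from 40.6 to 49.9%, overlapped that of the loci, of which 40.6% were in front. The 104 loci in front of a gene belonged to 97 genes and had a median width of 552 bases, and 100 of them shared the block of the gene. Loci farther from the gene belonged to runs more often, on both sides. Up to 1 kb this was 31.7% of the loci in front, with an interval from 23.6 to 41.2%, and 36.7% of those behind, from 21.9 to 54.5%. At 1 to 10 kb it was 59.8% of the loci in front, from 50.8 to 68.3%, and 64.3% of those behind, from 56.9 to 71.1%. The sources used here do not say whether the libraries kept strand, so the strand of the loci themselves is not known.

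**Figure D3:**
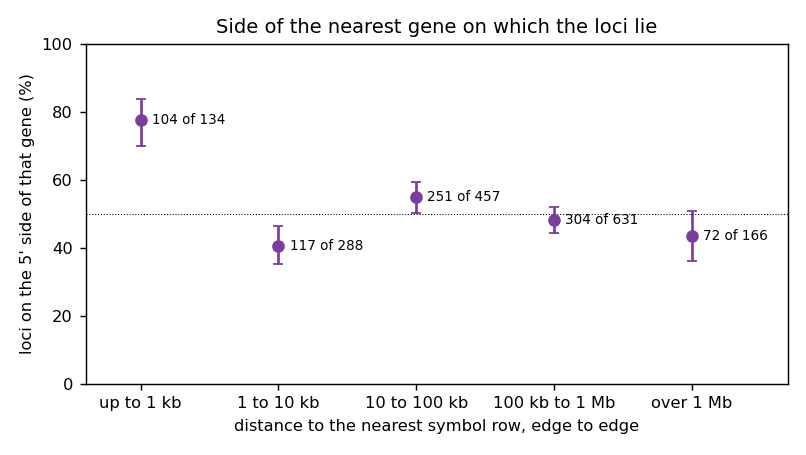
Percentage of loci on the 5' side of the nearest gene against the distance to it, with 95% Wilson intervals as bars and the counts beside the points, and a dotted line at 50%. Loci up to 1 kb from the gene lie mostly on the 5' side (104 of 134), and of those at 1 to 10 kb 117 of 288 lie on the 5' side.

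The loci nearest to a gene were at most 73 bases away. In the upregulated block these were 51 bases behind *MAP2K6*, a kinase that activates p38, 58 bases in front of *DNAJA2*, 59 bases behind *PLEKHA7*, a protein of adherens junctions, 64 bases behind *TKT*, the transketolase of the pentose phosphate pathway, and 73 bases in front of *TNS3*. In the downregulated block they were 34 bases in front of *TMEM200A*, 38 bases in front of *FNTA*, a subunit of protein farnesyltransferase, 53 bases in front of *CD7*, a T-cell surface glycoprotein, 56 bases behind *SLFN12*, a schlafen gene, and 58 bases in front of *IVNS1ABP*. All 10 loci stood in the block of their gene.

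Of the genes nearest to a locus within 100 kb, 372 had a single locus and 22 had 5 or more. *FAM20C* had the most, with 10 downregulated loci between 0.461 and 10.98 kb away, 6 behind the gene and 4 in front of it. *METRNL*, a secreted meteorin-like factor, had 6 downregulated loci, 5 of them behind the gene and all within 8.47 kb. *KIF26B*, a kinesin family member, likewise had 5 of 6 downregulated loci behind it, within 5.97 kb. All 6 upregulated loci of *PAPPA*, the metalloproteinase that cleaves insulin-like growth factor binding proteins, lay behind the gene at 6.13 to 14.8 kb. In each of these 4 genes most of the loci lay behind the 3' edge, in the block of the gene.

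Other genes had their loci in front. *ALDH1A3*, which makes retinoic acid from retinal, had 6 downregulated loci at 3.45 to 49.0 kb upstream. *KIFC3*, a minus-end directed kinesin, had 6 upregulated loci at 1.61 to 60.2 kb upstream. *AKAP11*, an anchoring protein of protein kinase A, had 6 upregulated loci from 0.361 to 32.7 kb upstream. *LOXL2*, a lysyl oxidase that crosslinks collagen, had 6 downregulated loci, the nearest 53.8 kb upstream. *ZNF320* and *C21orf88* had 6 downregulated loci each in front of them, at 14.1 to 16.5 kb and 53.0 to 58.7 kb. For the salt-inducible kinase *SIK1*, 7 upregulated loci lay behind the gene at 22.2 to 83.2 kb. *ISG15*, a ubiquitin-like protein induced by interferon, had 7 downregulated loci from 12.7 to 53.6 kb, 4 upstream and 3 downstream. Of these 15 genes, *TMEM97* alone had loci in the other block, and in none were the loci divided between the blocks.

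**Figure D4:**
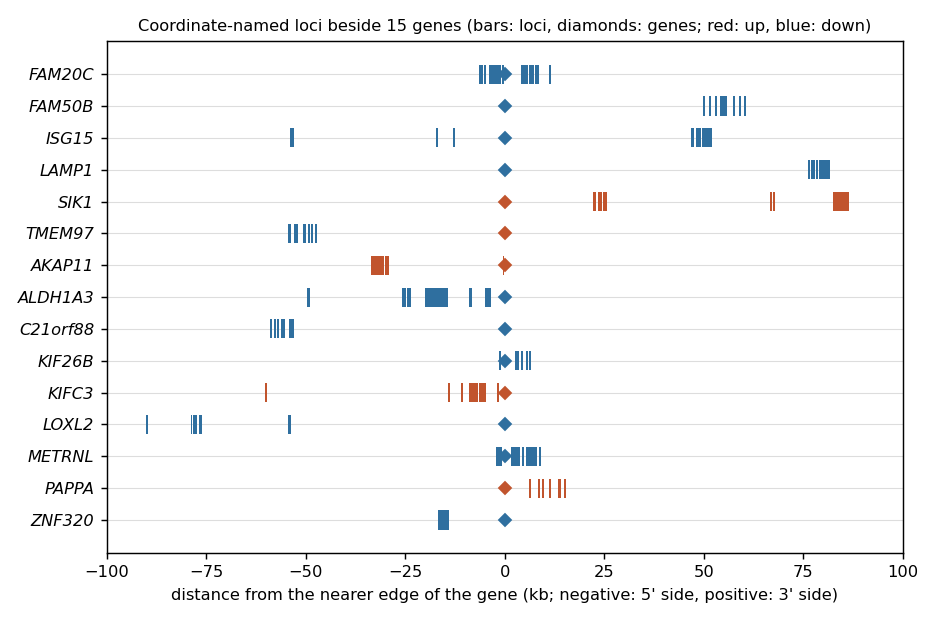
Positions of the loci (bars) beside the 15 genes with most loci within 100 kb, as distance in kb from the nearer edge of the gene (diamond), with the 5' side negative and the 3' side positive. Red marks the upregulated and blue the downregulated block, the genes themselves are not drawn to length, and bars narrower than 0.5 kb are drawn 0.5 kb wide. Bars and diamond share their colour in each row but that of *TMEM97*.

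Of all rows with symbols, 569 of 3554 or 16.0% were the nearest gene to a locus within 100 kb, and 46.7% were downregulated. These shares are the background for the gene lists that follow, which were not tested. The list of EMT drivers held *SNAI1*, *SNAI2*, *ZEB2* and *TWIST1*, and the mesenchymal list *VIM*, *TNC*, *MMP2* and *MMP9*. Both were chosen with earlier results of these data known and left out *ZEB1*, *CDH2* and *TGFB1*, which the paper also measured. Their counts describe these lists only. All 4 listed drivers were downregulated. Of these, *TWIST1* and *SNAI2*, transcription factors that drive the mesenchymal state, each had a downregulated locus directly in front of the gene. That of *TWIST1*, on chromosome 7 from 19157798 to 19159065, was 68 bases away, and that of *SNAI2*, on chromosome 8 from 49834205 to 49834953, was 206 bases away. All 4 mesenchymal genes were downregulated too, and of these only *VIM*, the intermediate filament vimentin, had a downregulated locus of 1064 bases 12.9 kb upstream. The epithelial list took keratins, claudins, *CDH1*, *CTNNA1* and *EPCAM*. This list was also chosen with earlier results of these data known, and it left out *CTNNA2* and *CTNND1*, which the paper measured too. Of the 14 listed epithelial genes in the table, 11 were upregulated and 3 downregulated, and 2 of the upregulated had a locus within 100 kb. These were *CTNNA1*, the alpha-catenin that links cadherins to actin, and the keratin *KRT7*, which had an upregulated locus each 112 bases upstream and 5.84 kb downstream. Of 20 collagen genes, 18 of them downregulated, 6 had loci within 100 kb, and 8 of these 9 loci shared the block of the gene. *COL23A1* had 2 downregulated loci 2.03 and 2.30 kb behind it, and *COL5A1* had 2 in front of it at 16.8 and 19.3 kb. The exception was an upregulated locus 32.3 kb from the downregulated *COL1A1*. Of 19 protocadherin rows, 15 were downregulated. They had 3 loci, and the 2 downregulated loci 8.18 and 9.17 kb in front of *PCDHB2* stood against an upregulated gene. For comparison, 83.7% of all 923 loci within 100 kb of a gene shared its block, which is the background for the counts of these small groups.

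The zinc finger list was the longest. The table holds 133 rows of the *ZNF* family on the autosomes, 97 of them or 72.9% downregulated. Within 100 kb of 29 of these genes, 21.8%, lay 43 loci, 34 downregulated and 9 upregulated, and 40 of the 43 shared the block of the gene. *ZNF716* had 3 downregulated loci from 0.674 to 2.57 kb behind it, and *ZNF486* had 3 from 14.9 to 22.6 kb behind it. Members of this family are similar in sequence and can share reads. The noncoding list held *MALAT1*, *NEAT1* and symbols that start with LINC, and no other long noncoding RNAs. Its 31 rows, of which 20 were downregulated, had 22 loci of which 21 matched. The row of *NEAT1* had 5 upregulated loci on both sides, which may be parts of its own transcripts, and *LINC00552* had 4 downregulated loci. The exception within this list was *MALAT1*, which was upregulated and whose nearest locus, 52.0 kb behind it, was downregulated. *DANCR*, whose locus in the other block is given above, is not on the list. No immunoglobulin gene segment was among the rows with symbols.

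By chromosome, the loci ranged from 30 on chromosome 18 to 134 on chromosome 2. Relative to the genes of the table they were densest on chromosome 21, where 46.6% of rows had no symbol, and sparsest on chromosomes 12 and 19, with 19.8 and 21.4%. The share in the downregulated block was highest on chromosome 2, with 102 of 134 loci or 76.1%, and lowest on chromosome 3, with 26 of 81 or 32.1%. Genes of the same chromosomes were downregulated in 72.1 and 36.7% of rows. Over the 22 autosomes Pearson's r between both shares was 0.67 and Spearman's rho 0.64, given as a description, since loci and genes come from the same libraries and lie beside each other. The majority was the same on 18 chromosomes. On 16 of the 22 the loci were downregulated more often than the genes, by up to 23.9 percentage points on chromosome 18. Chromosome 19 was the only one whose intervals lay on opposite sides of 50%, with 62.6% of loci and 43.1% of genes in the downregulated block.

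The blocks were also unevenly spread within chromosomes. In windows of 10 Mb, a size chosen after seeing the data, 45 windows held at least 10 loci and 10 genes. In 22 of them at least 80% of the loci were in a single block, and in 12 both loci and genes reached 80%, 11 times in the same direction. On chromosome 19 between 40 and 50 Mb, 20 of 21 loci and 133 of 136 genes were upregulated. Between 20 and 30 Mb of the same chromosome, 19 of 20 loci and 17 of 18 genes were downregulated. On chromosome 13 beyond 110 Mb all 16 loci and all 16 genes were downregulated. On chromosome 17 between 40 and 50 Mb, 25 of 26 loci and 47 of 51 genes were upregulated, and on chromosome 7 in the window that starts at 0 Mb, 23 of 25 loci and 9 of 10 genes were downregulated. The exception was the start of chromosome 10, where 18 of 21 loci were downregulated and all 10 genes upregulated. Most loci of this window lay far from its genes. From 1031308 to 4298983 the nearest gene of the table was *AKR1C2* for each locus, 706.5 to 3974 kb away. The locus from 5636836 to 5638428 was 375.9 kb from *AKR1C4*. Both neighbours, aldo-keto reductases of steroid metabolism, were looked up after the window was seen. The downregulated locus nearest to a gene, from 5987605 to 5987847, was 199.0 kb from *PFKFB3*. Upregulated loci lay 18.7 kb from *PFKFB3* and 39.1 kb from *LINC00707*, in the block of these genes. Over the 45 windows Pearson's r was 0.70 and Spearman's rho 0.71, again as a description. Copy number of the libraries was not measured, and its part in these blocks was not tested.

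**Figure D5:**
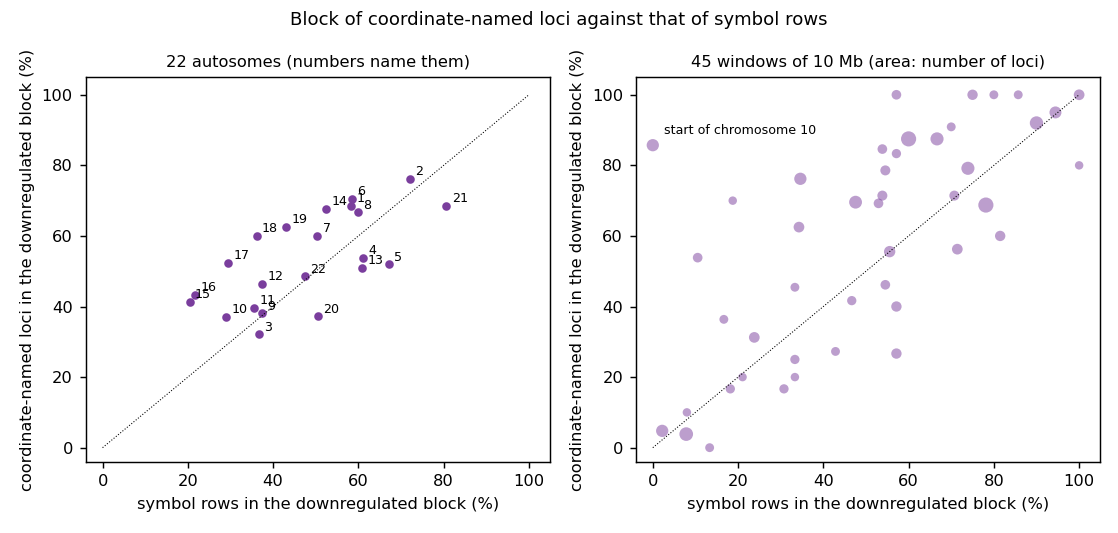
Percentage of coordinate-named loci in the downregulated block against that of rows with symbols, for 22 autosomes (left, numbers name the chromosomes) and 45 windows of 10 Mb (right, the area of a point grows with the number of loci). The dotted line marks equal shares. Points rise together on both sides, and the start of chromosome 10, with 85.7% of loci and 0% of genes downregulated, stands apart at the upper left.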

How the data were processed

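Total RNA of MDA-MB-157 cells from 3 conditions, with 1 library each, was sequenced on an Illumina instrument, with reads processed by the authors on a Galaxy server. The submitters' processing notes name TopHat2 2.0.3, Cufflinks 2.0.1 and DESeq2 with the builds hg19 and GRCh37, without their roles. The deposited table holds, for a comparison whose title carries the word untreated, names, positions, log2 fold changes, adjusted p-values and calls of the authors' own comparison. Only names, positions and the heading of the block were used here, and 0 columns of values for single samples. Fold changes, p-values, calls and isoform blocks were not used. The depth is unknown.

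Rows named by position on the 22 autosomes were taken as loci, and 49 on the sex chromosomes were left out. Whether starts count from 0 or 1 is not given in the sources used here, which moves a width by at most 1 base. Nearest rows were found edge to edge, and loci up to 10 kb apart were joined into runs. The strand was known for 3381 of 3554 rows with symbols, from GENCODE release 29 on GRCh38 by symbol and chromosome, and none of its coordinates were used. Of 3483 rows with a single symbol, 3403 matched RefSeq. Rows that list several symbols, 71 in number, were kept as single rows and given no strand. Intervals are 95% Wilson intervals for shares and order-statistic intervals for medians. Nearest-row and run calculations were tested on simulated positions.

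Named were the 3 widest and 3 narrowest loci of each block, the largest runs with ties, the 10 genes with most loci within 100 kb with ties, the 5 nearest loci of each block, and members of gene lists with a locus within 100 kb, of which examples are given. The loci, lists and alternatives were chosen with earlier results of these data known, and the strand, flank and window analyses after seeing the positions. Python 3.11.15, numpy 2.4.6, pandas 2.3.3, scipy 1.17.1 and matplotlib 3.10.9 were used.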

Additional observations from a re-analysis of the deposited data

How the results depend on the processing

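Of 43 alternatives, 35 left the value inside the interval of the reported one and 6 moved it outside. The other 2 concerned the count of loci, which was 1752 and 1740. Of the 35, 22 left a chromosome out of the median width, which takes away at most 134 of 1752 loci and could hardly move it. Counting each position once changed nothing, because no locus repeats a position. With 1 kb in place of 10 kb, 33.9% of loci lay beside another locus in place of 47.2%, and with 100 kb it was 57.9%. Measured between midpoints, the median distance to a gene was 128.2 kb in place of 80.3 kb, because the midpoint of a long gene lies far from its edge. The share of loci in the block of the nearest gene was 92.3% when limited to 10 kb and 63.9% beyond 100 kb, in place of 74.4%. It was 72.9% with each run counted once and 75.6% with each gene counted once. Leaving out each chromosome in turn kept the median width between 522 and 531 bases. In alternatives chosen after seeing the data, Pearson's r over windows was 0.85 in 19 windows of 5 Mb and 0.71 in 73 windows of 20 Mb, in place of 0.70, and the 5' share up to 1 kb was 77.6% with each gene counted once and 75.8% beside protein-coding genes. The 3' share at 1 to 10 kb was 56.7% with each gene counted once. No paired analysis was possible because only a single library stands for a condition, and for the same reason none was left out in turn. Depth is not given by the table, so it is not known how weakly transcribed a locus could be and still be listed.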
